A study of Mus musculus with 2 samples.

Results

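The 35 genes described here encode proteins of the ribbon synapse and of vesicle release in the retina: ribbon and active zone proteins, calcium channel subunits, vesicle proteins, the SNARE fusion machinery, complexins and adhesion proteins that join photoreceptor terminals to bipolar cells. They were listed by symbol, and all 35 were found among the 32285 genes of the count tables. Single cells were taken from retinas of mice on the C57BLKS background at 13 weeks of age, with no treatment. The wild-type group was C57BLKS-Leprwt/wt (also labelled m/m), and the other group was C57BLKS-Leprdb/db, homozygous for the db mutation of the leptin receptor gene Lepr and used as a model of type 2 diabetes with obesity. In db/db mice every cell carries the db mutation, which acts on splicing of Lepr RNA, and 3' tags of Lepr therefore check neither the mutation nor the labels. Each genotype had 1 droplet library (10x Genomics 3' chemistry) from 2 mice, and cells were not traced to a mouse here. No test between the genotypes is therefore possible, and every interval below, at 95%, covers counting error only.

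Photoreceptors and bipolar cells release glutamate continuously rather than in bursts. A plate-like ribbon, built mainly of RIBEYE, a product of the Ctbp2 gene, holds vesicles near L-type calcium channels at the release site, and graded changes in membrane voltage set the rate of release. Complexins bind the assembled SNARE complex and hold or promote fusion, and retinal ribbon synapses are known for using Cplx3 and Cplx4 in place of the Cplx1 and Cplx2 of conventional synapses. Across the cleft, Elfn1, Elfn2, Lrit proteins and the dystrophin, dystroglycan and pikachurin (Egflam) complex organise the contact with the dendrites of bipolar cells.

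The libraries held 10308 wild-type and 11083 db/db barcodes with 35642274 and 33742189 unique molecular identifiers (UMIs, the counted RNA molecules). Per the labels, some 6000 cells were loaded on each channel with a target of 3000. Of these barcodes 10230 and 10963 were kept, with a median of 2314 and 2051 UMIs, and 26 barcodes occurred in both libraries. Cells were classed by marker genes, none of them among the 35. Rods numbered 7940 and 9262, cones 403 and 374, bipolar cells 363 and 299, Muller glia 139 and 93, amacrine cells 61 and 10, microglia or macrophages 39 and 32, and erythroid cells 21 and 36. Bipolar cells held 117 and 82 rod bipolar, 79 and 72 ON cone bipolar and 39 and 25 OFF cone bipolar cells. The remaining 12.4% of wild-type and 7.82% of db/db cells met no rule or more than 1 and were left out. No class had a marker of another class among its 10 leading genes, an outcome largely fixed by classing cells on the same markers. Rods and Muller glia each had 1 of their own markers there, and the other classes 5 or 6. Gnat1, Pde6a, Pde6b, Cnga1 and Gngt1, which encode the transducin, phosphodiesterase and channel subunits of the rod light response, were counted in every class, and their summed level outside rods was taken as the measure of free rod RNA. It reached 15.8% and 16.3% of the rod level in bipolar cells, 8.74% and 8.01% in microglia or macrophages, and 30.1% and 29.3% in cones, whose rule allowed more rod RNA. These genes are among the rod markers. The rules capped rod markers in the other classes and set a minimum for them in rods, which can make this measure too low. Levels below are UMIs per 1000000 UMIs of the class (CPM), first in the wild-type and then in the db/db library. Counts are 3' tags, which do not tell isoforms apart, so Ctbp2 values hold RIBEYE together with the other product of that gene, and Dmd values all dystrophin isoforms.

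The members together made up 10910 and 10850 CPM in rods, 12840 and 12450 in cones, and 13900 and 13650 in bipolar cells. Amacrine cells, inhibitory neurons with conventional synapses, had 11990 and 12080. Muller glia had 2802 and 2783, microglia or macrophages 1971 and 1497, and erythroid cells 888 and 737. The 2 libraries gave nearly the same sums in each neuronal class, and the neuronal sums lay well above those of the other cells. Of the 35 members, 33 in cones and 32 in bipolar cells were above the level that free rod RNA would give, by more than counting error, in both libraries. In Muller glia 19 members were, in microglia or macrophages 6, and in erythroid cells 0. The estimate covers RNA from rods and not from other cells. It rests on markers that the class rules limit, and its own error is not in these counts.

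**Figure D1:**
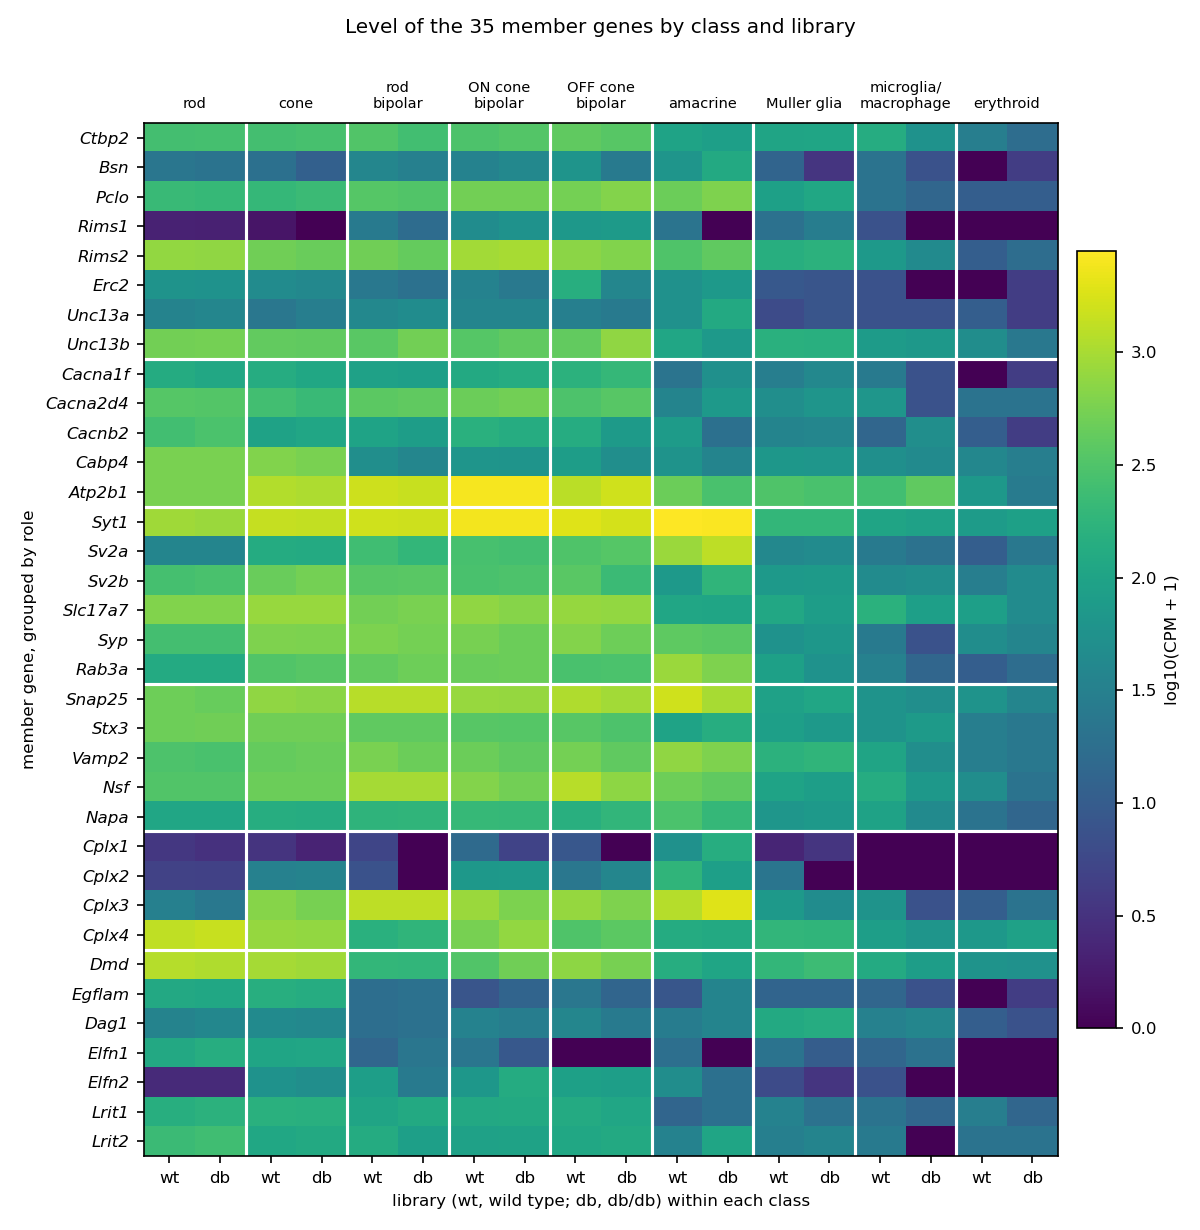
Level of each of the 35 member genes (rows, grouped by role) in each class and library (columns; wt, wild type; db, db/db), as log10(CPM + 1). The 2 columns of a class resemble each other, while Cplx3, Cplx4, Elfn1, Elfn2, Cabp4 and Egflam differ from class to class.

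Ribbon and active zone genes were present in rods, cones and bipolar cells, with Rims1 nearly confined to bipolar cells among these 3 classes. Ctbp2 was at 258 and 272 CPM in rods, 260 and 275 in cones, and 338 and 321 in bipolar cells. It was lower in cells without ribbons, at 99.9 and 88.7 in amacrine cells and 102 and 106 in Muller glia. Rims2, the main RIM scaffold gene of photoreceptors, was at 777 and 752 in rods, 503 and 457 in cones and 707 and 720 in bipolar cells. Its relative Rims1 had 29 and 28 UMIs among all rods and 1 and 0 among cones, but 56 and 39 among the far fewer bipolar cells. Those counts gave 43.3 and 39.1 CPM in bipolar cells against 1.15 and 1.07 in rods, which is 37.5-fold and 36.7-fold higher. Pclo, encoding the scaffold piccolo, was 2.05-fold and 2.36-fold higher in bipolar cells than in rods, at 449 and 486 against 219 and 206. Bsn, encoding bassoon, which anchors the ribbon, was at 40.2 and 33.1 in bipolar cells and 17.6 and 10.4 in cones. Of the Munc13 priming factors, Unc13b was at 527 and 530 in rods, 413 and 403 in cones and 379 and 493 in bipolar cells, and Unc13a was at 33.9 and 37.9, 22.3 and 29.3, and 45.6 and 39.1. Erc2, an active zone scaffold gene, was at 57.8 and 56.7 in rods, 44.6 and 40.3 in cones and 37.1 and 24.1 in bipolar cells.

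Calcium genes differed by class in 3 directions: Cacnb2 was highest in rods, Cabp4 in photoreceptors and Atp2b1 in bipolar cells. Cacna1f, encoding the pore of the photoreceptor L-type channel, was at 130 and 116 in rods, 134 and 114 in cones and 128 and 124 in bipolar cells. The auxiliary subunit gene Cacna2d4 was at 351 and 336, 250 and 215, and 403 and 451. The beta subunit gene Cacnb2 was highest in rods in both libraries, at 257 and 294, against 97.5 and 109 in cones and 116 and 103 in bipolar cells. Cabp4, a calcium-binding regulator of that channel, was at 574 and 563 in rods and 634 and 562 in cones. In bipolar cells Cabp4 had 64.1 and 51.1 CPM, below the 90.5 and 91.7 that free rod RNA would give. Atp2b1, a plasma membrane pump that clears calcium, ran the other way, with 572 and 564 in rods, 1132 and 1053 in cones and 1756 and 1688 in bipolar cells.

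Of the 6 vesicle and 5 SNARE genes, Sv2a, Syt1, Rab3a, Snap25 and Nsf were at least 2-fold higher in bipolar cells than in rods in both libraries. Sv2a, a vesicle glycoprotein gene, was at 35.9 and 35.6 in rods, 131 and 126 in cones, 271 and 253 in bipolar cells, and 864 and 1260 in amacrine cells, where it was over 2-fold above the next class in both libraries. Its relative Sv2b was highest in cones, at 460 and 536, with 267 and 291 in rods and 317 and 342 in bipolar cells. Rab3a, a vesicle GTPase gene, was 2.57-fold and 2.78-fold higher in cones than in rods and 3.27-fold and 3.39-fold higher in bipolar cells than in rods. Syp, encoding synaptophysin, was at 263 and 263 in rods and at 611 and 579 in cones. Syt1, the calcium sensor of fusion, was 2.20-fold and 2.29-fold higher in bipolar cells than in rods, with 918 and 855 CPM in rods and 2016 and 1957 in bipolar cells. Slc17a7, the vesicular glutamate transporter gene, was at 630 and 628 in rods, 820 and 830 in cones and 643 and 628 in bipolar cells, and at 110 and 106 in amacrine cells, which release GABA or glycine. Among the SNARE genes, Snap25 was at 490 and 438 in rods and 1078 and 1060 in bipolar cells, and Nsf, the ATPase that takes SNARE complexes apart, was at 322 and 321 and at 882 and 773. Stx3, the syntaxin of ribbon synapses, was at 495 and 510 in rods, 507 and 508 in cones and 363 and 356 in bipolar cells, but at 99.9 and 142 in amacrine cells. Vamp2 was at 306 and 287 in rods and 532 and 462 in bipolar cells, and Napa, which recruits Nsf, at 110 and 109 and at 180 and 185.

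The complexins divided rods from the other neurons. Cplx4 was highest in rods, at 1337 and 1426 CPM in rods and 801 and 787 in cones. Free rod RNA, at 30.1% and 29.3% of the rod level in cones, is not taken off these cone values. Cplx3 (GENCODE M21, GRCm38 chr9:57599992-57606281) was at 30.9 and 23.3 in rods, 664 and 553 in cones and 988 and 873 in bipolar cells, which is 21.5-fold and 23.7-fold higher in cones than in rods and 32.0-fold and 37.4-fold higher in bipolar cells than in rods. Free RNA would give 11.5 and 6.78 CPM of Cplx3 in rods. Within bipolar cells the pair ran in opposite directions between rod bipolar and ON cone bipolar cells. Cplx3 was at 1269 and 1264 in rod bipolar and 846 and 582 in ON cone bipolar cells, and Cplx4 at 153 and 182 in rod bipolar and 546 and 767 in ON cone bipolar cells. Cplx4 was thus 3.56-fold and 4.21-fold higher in ON cone bipolar than in rod bipolar cells, where it was not above the 171 and 184 CPM of free rod RNA beyond counting error. OFF cone bipolar cells lay between them for Cplx4, at 317 and 381.

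Amacrine cells held Cplx3 too, at 1149 and 1916, and were the class with the highest Cplx1 and Cplx2. Cplx2 was at 177 and 88.7 in amacrine cells, 35.5 and 36.1 in bipolar cells, 31.7 and 33.6 in cones and 3.82 and 3.69 in rods. Cplx1 was at 54.9 and 142 in amacrine cells and at most 6.95 in rods, cones and bipolar cells as a whole. The db/db amacrine values rest on 10 cells, with 8 UMIs of Cplx1 and 5 of Cplx2.

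Single cells showed the same division when each cell was thinned to 1000 UMIs and shallower cells were left out, which kept 6437 wild-type and 8119 db/db rods. Cplx4 was detected in 74.4% and 76.0% of rods and 55.0% and 49.3% of cones, and Cplx3 in 3.20% and 2.30% of rods, 44.4% and 42.9% of cones and 70.1% and 65.4% of rod bipolar cells. Both genes were detected together in 22.2% of wild-type cones (18.2 to 26.7%, Clopper-Pearson) and 22.4% of db/db cones (18.2 to 27.1%). Free rod RNA in cones was at 30.1% and 29.3% of the rod level, and its part in these Cplx4 and joint shares was not tested. Whether the joint shares differ from what the separate shares of the 2 genes would give was not tested either. In Muller glia, which have no ribbon synapse, Cplx4 was detected in 10.5% and 15.1% of thinned cells and Cplx3 in 1.61% and 1.37%, so the Cplx3 shares in rods lay within counting error of those in Muller glia. Before thinning, Cplx3 was detected in 8.60% and 5.91% of rods, 82.4% and 81.8% of cones and 12.2% and 10.8% of Muller glia, at median depths of 2222 and 1945, 4330 and 4608, and 5407 and 4762 UMIs.

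**Figure D2:**
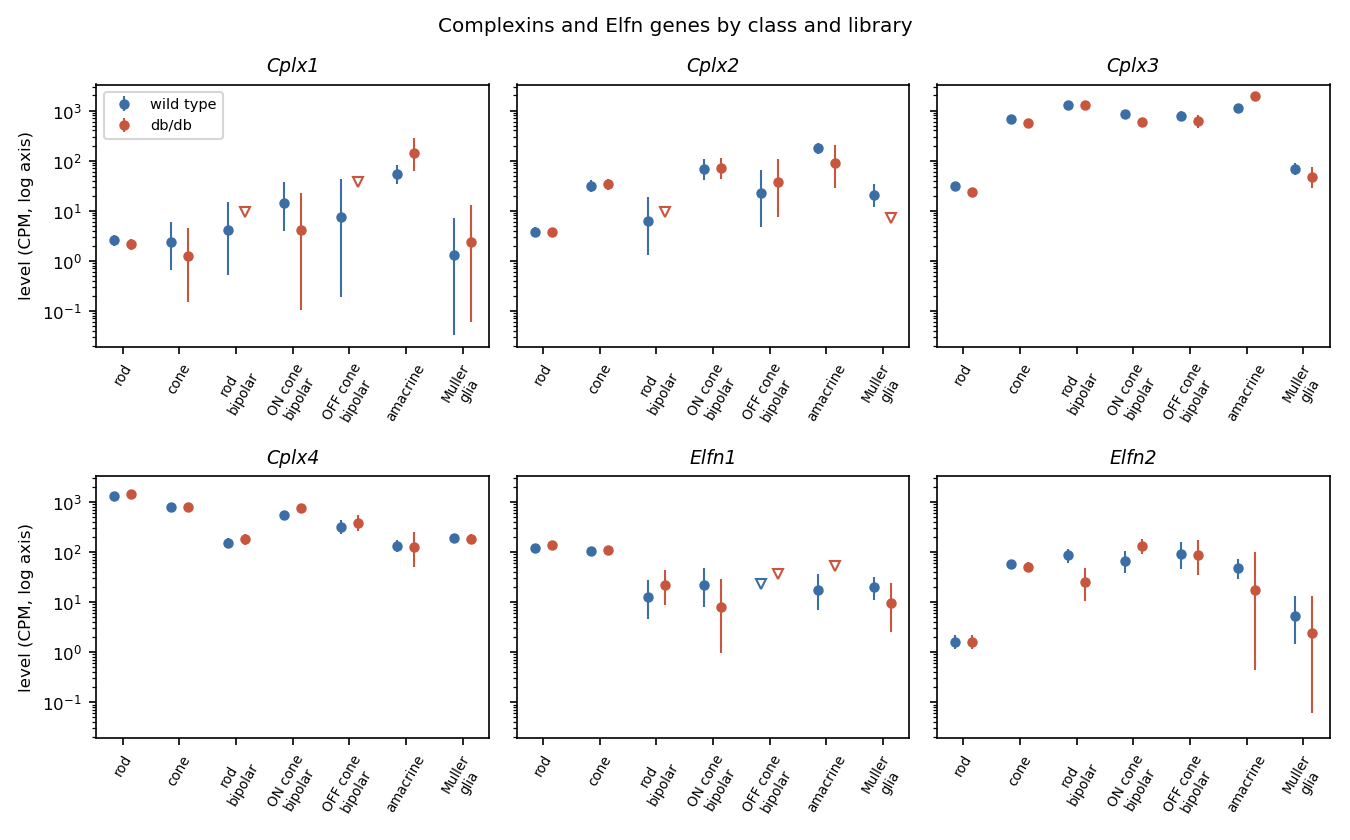
Levels of the 4 complexins and of Elfn1 and Elfn2 (CPM, log axis) by class, for the wild-type (blue) and db/db (red) libraries. Bars are 95% Poisson intervals of the summed UMIs and open triangles mark the upper limit of 3 UMIs where a class had none. Among the 7 classes plotted, Cplx3 and Elfn2 lie lowest in rods, while Cplx4 and Elfn1 lie highest there, with Elfn1 in cones close below.

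The adhesion genes held a second pair, of which only Elfn2 divided rods from cones. Elfn1 (chr5:139907943-139974722), a transsynaptic protein that rods need to contact rod bipolar cells, was at 121 and 139 CPM in rods, 107 and 109 in cones, and 13.1 and 16.0 in bipolar cells, where free rod RNA would give 19.1 and 22.6. Elfn2 (chr15:78667331-78718771), its paralog, was at 1.59 and 1.60 in rods, 56.9 and 50.1 in cones and 85.8 and 86.2 in bipolar cells. Elfn2 was thus 35.8-fold and 31.3-fold higher in cones than in rods, and 53.9-fold higher in bipolar cells than in rods in each library. Egflam was at 120 and 114 in rods, 147 and 136 in cones, and 14.7 and 16.0 in bipolar cells, where free RNA would give 18.9 and 18.5. Cabp4, Egflam and Elfn1 were the members not above free rod RNA by more than counting error in bipolar cells in either library. Dmd was at 1147 and 1079 in rods, 964 and 901 in cones and 352 and 374 in bipolar cells. Dag1, encoding dystroglycan, was highest in Muller glia, at 123 and 135, against 34.3 and 39.2 in rods, which is 3.58-fold and 3.44-fold. Lrit1 was at 147 and 162 in rods, 155 and 151 in cones and 119 and 123 in bipolar cells, and Lrit2 at 222 and 246, 113 and 123, and 120 and 99.2.

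Counted over all members, 6 of 35 were at least 2-fold higher in cones than in rods in both libraries (Sv2a, Syp, Rab3a, Cplx2, Cplx3 and Elfn2), against a background of 7.64% of all genes measured, and 1 was lower (Cacnb2), against 6.17%. In bipolar cells 12 of 35 were higher than in rods (background 16.7%) and 6 were lower (background 11.4%), the 6 being Cacnb2, Cabp4, Cplx4, Dmd, Egflam and Elfn1. Against cones, 3 of 34 measured members were higher in bipolar cells (Bsn, Pclo and Rims1; background 12.6%) and 4 were lower (Cabp4, Dmd, Egflam and Elfn1; background 8.08%). Between ON cone and rod bipolar cells, 1 of 27 was higher (Cplx4; background 4.64%) and 0 were lower (background 3.98%). In Muller glia 22 of 35 members were lower than in rods (background 13.5%), and 3 were higher (Rims1, Cplx3 and Dag1), with 33.5% of all measured genes past 2-fold in either direction and 2487 of 12439 higher. Rims1 in Muller glia rested on 14 and 12 UMIs and Cplx3 on 53 and 20. Bipolar markers had a median of 3.47 and 2.41 UMIs per 10000 in Muller glia, and their part in these values was not tested. Amacrine cells, of which the db/db library had 10, had 10 of 32 members lower than bipolar cells (background 4.03%) and 2 higher (Sv2a and Cplx2; background 5.47%).

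Upstream sequence was looked at because these genes differ between photoreceptors and other neurons, and Crx, the photoreceptor homeobox factor, is known to bind the core TAATCC. RefSeq promoters on GRCm38.p6 were matched for 29 of the 35 members. Rims2, Cacna2d4, Cabp4, Snap25, Vamp2 and Cplx4 had none and were not searched. The letters TAATCC, on either strand, occurred in the 250 bases before a start site in 5 of these 29 members (17.2%) and in 7.21% of all 27025 symbols with a promoter. The 5 were Ctbp2, Lrit1, Lrit2, Sv2b and Syp. By level, Ctbp2 was highest in bipolar cells, Sv2b and Syp in cones and Lrit2 in rods, in both libraries. Lrit1 was highest in cones in the wild-type library and in rods in the db/db library. Egflam, which ran low in bipolar cells, had no match, and a link between matches and levels by class was not tested. The stretches around each match are shown 5′ to 3′ on the gene's strand, with the core, or its reverse complement GGATTA, in capitals.
Ctbp2, chr7:133015351-133015380, minus strand: taaggtttcagaGGATTAataatttaggtc
Lrit1, chr14:37054768-37054797, plus strand: gggctccctcccTAATCCccagcctgtgtt
Lrit2, chr14:37067980-37068009, plus strand: ctacatctttatGGATTAccaataatagga
Sv2b, chr7:75302683-75302712, minus strand: tgtgatgttcttGGATTAttattgtactgc
Sv2b, chr7:75309395-75309424, minus strand: ttggggatggcaTAATCCgaggacaccccc
Syp, chrX:7638330-7638351, plus strand: atagGGATTAaatgagagaaca
The match in Ctbp2 lies 121 bases before a start site inside the gene. Lrit1 and Lrit2 are neighbours on chromosome 14, with a gap of 2.98 kb between them, and their matches begin 50 bases before the start of Lrit1 and 37 and 56 bases before the annotated pair of starts of Lrit2. The full 250 bases before the start of Lrit1, and those of Elfn1 and Elfn2 whose levels by class differed, are shown in the same way.
Lrit1, chr14:37054580-37054829, plus strand: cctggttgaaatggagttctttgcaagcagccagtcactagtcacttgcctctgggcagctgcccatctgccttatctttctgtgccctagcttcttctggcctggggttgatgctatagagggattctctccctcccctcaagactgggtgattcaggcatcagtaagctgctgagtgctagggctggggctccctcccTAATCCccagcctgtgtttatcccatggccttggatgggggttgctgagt
Elfn1, chr5:139907616-139907865, plus strand: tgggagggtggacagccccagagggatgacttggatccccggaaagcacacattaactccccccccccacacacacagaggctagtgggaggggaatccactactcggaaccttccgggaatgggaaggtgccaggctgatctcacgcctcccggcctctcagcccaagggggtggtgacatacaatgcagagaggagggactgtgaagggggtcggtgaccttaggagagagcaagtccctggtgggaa
Elfn2, chr15:78718772-78719021, minus strand: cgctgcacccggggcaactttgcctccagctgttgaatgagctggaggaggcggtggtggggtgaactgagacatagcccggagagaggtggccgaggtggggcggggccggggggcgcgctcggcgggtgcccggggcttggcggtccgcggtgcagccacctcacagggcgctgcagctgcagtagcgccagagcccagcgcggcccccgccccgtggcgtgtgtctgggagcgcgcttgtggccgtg
A match is a description of letters only, and the windows of Elfn1 and Elfn2 hold none.

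The second question was whether these genes differed between the db/db and the wild-type library within a class. In rods and cones every measured member lay within 1.5-fold, and 5 members did not in the other classes. A member counted as past the threshold at 1.5-fold or more, with at least 50 UMIs in the class over both libraries. All 35 members were measured in rods, and 0 were past 1.5-fold in either direction, against a background of 2.15% of all measured genes higher and 2.09% lower. Ratios between the libraries are log2 ratios of db/db over wild type. Their median was -0.02 over the members and 0.03 over all measured genes. In cones 0 of 32 measured members were past 1.5-fold (background 2.51% higher and 2.49% lower), with medians of -0.03 and 0.00. In bipolar cells 0 of 32 were higher (background 3.76%) and 1 was lower (background 4.11%), with medians of -0.04 and -0.01. This was Erc2, with 48 and 24 UMIs and a ratio of -0.62 (-1.40 to 0.11), an interval that includes 0. It was within 1.5-fold with clusters (-0.51), a stricter gate (-0.53) and a mitochondrial limit of 10% (-0.49).

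**Figure D3:**
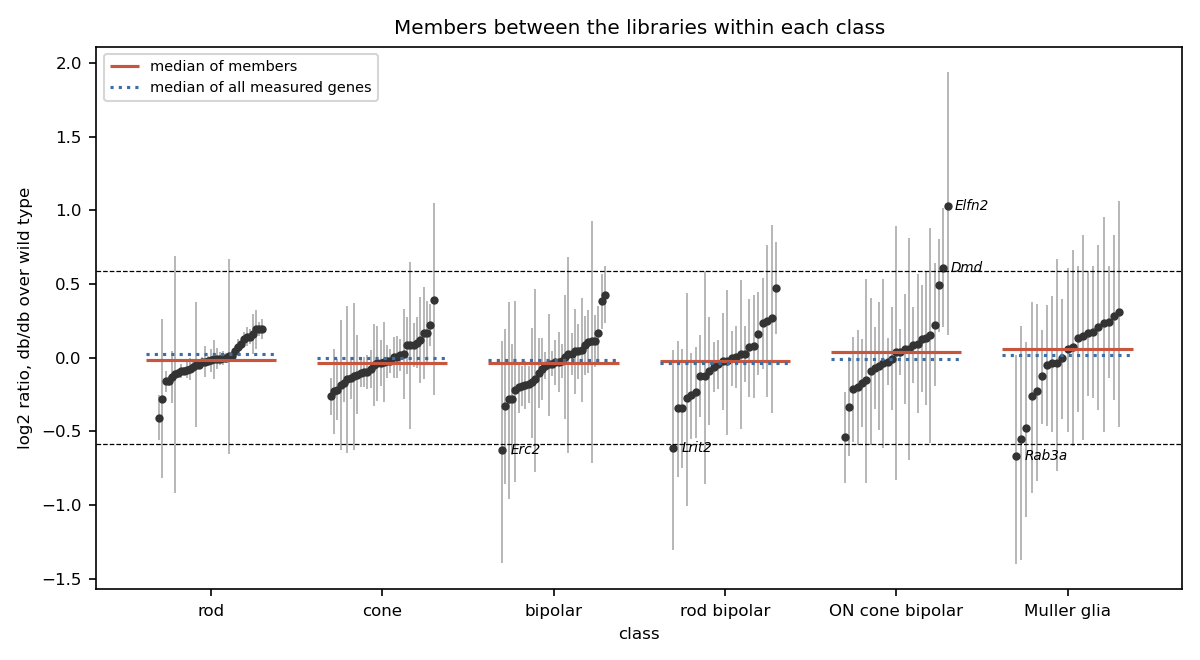
Log2 ratio of db/db over wild type for each measured member (points, sorted within a class) with its 95% counting interval, in 6 classes. Solid red lines are medians of the members, dotted blue lines medians of all measured genes, and dashed lines 1.5-fold. In rods and cones no point lies past the dashed lines, and the named points are the 5 that do in the other classes.

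In the smaller classes few members passed the threshold and their intervals were wide. In rod bipolar cells 1 of 24 measured members was lower (background 7.50%) and 0 were higher (background 3.20%). It was Lrit2, with 63 and 28 UMIs and a ratio of -0.61 (-1.31 to 0.05), and was within 1.5-fold with clusters (-0.34), after thinning (-0.55) and with scaling without mitochondrial and rod marker genes (-0.58). In ON cone bipolar cells 2 of 25 were higher (background 5.36%) and 0 were lower (background 5.31%). Elfn2 had 18 and 33 UMIs there, a ratio of 1.03 (0.16 to 1.94), and Dmd had 91 and 125 UMIs, a ratio of 0.61 (0.21 to 1.01). Dmd was within 1.5-fold with clusters (0.31), thinning (0.43), equal weight per cell (0.48), removal of the highest doublet scores (0.55) and a stricter gate (0.58). In rod bipolar cells Elfn2 ran the other way, with 41 and 8 UMIs and a ratio of -1.80 (-3.10 to -0.69), a value singled out after it was seen, since its sum lies just under the 50 UMIs required. Over all bipolar cells Elfn2 was at 85.8 and 86.2 CPM. In Muller glia 1 of 21 measured members was lower (background 6.14%) and 0 were higher (background 5.27%). It was Rab3a, with 69 and 24 UMIs and a ratio of -0.67 (-1.40 to 0.02), and was within 1.5-fold with clusters (-0.36) and with equal weight per cell (-0.32).

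Below 1.5-fold, several members differed beyond counting error, which is small for the deeply counted rods. In rods Cacnb2 had 6463 and 7720 UMIs, a ratio of 0.19 (0.15 to 0.24). Elfn1 had 3047 and 3642 UMIs, also a ratio of 0.19 (0.12 to 0.26), and Lrit2 5592 and 6450 UMIs, a ratio of 0.14 (0.09 to 0.20). Lower in rods of the db/db library were Snap25, with 12315 and 11521 UMIs and a ratio of -0.16 (-0.20 to -0.12), and Cacna1f, with 3263 and 3052 UMIs and a ratio of -0.16 (-0.23 to -0.09). A ratio above 0 in rods was found for 12 of 35 members and for 56.6% of all measured genes. The 12 were 5 of 7 adhesion genes, 3 of 8 ribbon and active zone genes, 1 of 5 calcium genes, 1 of 6 vesicle genes, 1 of 5 SNARE genes and 1 of 4 complexins, and the difference between roles was not tested. Among the 5 adhesion genes Elfn2 was at 0.01 (-0.65 to 0.67), on 40 and 42 UMIs.

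Cplx3 had a ratio below 0 in rods, cones and bipolar cells, and Cplx4 a ratio above 0 in rods, at 0.09 (0.07 to 0.11), and in bipolar cells, but -0.02 (-0.14 to 0.09) in cones. In rods Cplx3 had 778 and 613 UMIs, a ratio of -0.41 (-0.56 to -0.25), the lowest of the 35. With free RNA subtracted this ratio was -0.25. Trpm1 and Gpr179, genes of bipolar cells, were also lower in rods, with 235 and 139 UMIs (-0.82) and 69 and 33 (-1.13). These 2 genes are named because they were the lowest of their list in rods by interval bound. The part of RNA from bipolar or amacrine cells in the Cplx3 ratio was not tested. In cones Cplx3 had 1131 and 906 UMIs, a ratio of -0.26 (-0.39 to -0.14), which was 0.05 when cones were taken from clusters in place of the marker rule. In ON cone bipolar cells Cplx3 had 234 and 145 UMIs, a ratio of -0.54 (-0.85 to -0.23), and Cplx4 151 and 191 UMIs, a ratio of 0.49 (0.17 to 0.81). Rod bipolar cells gave a ratio of -0.01 (-0.19 to 0.18) for Cplx3 and 0.25 (-0.27 to 0.77) for Cplx4. Over all bipolar cells the ratio was -0.18 (-0.31 to -0.05) for Cplx3 and 0.43 (0.23 to 0.62) for Cplx4. Rod bipolar cells, rich in Cplx3, were 117 of 363 wild-type and 82 of 299 db/db bipolar cells, and the part of this make-up in the values was not tested.

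The other named members lay within 1.5-fold by the marker rule. Among cones Sv2b had 783 and 877 UMIs, a ratio of 0.22 (0.08 to 0.36). Cabp4 was at -0.17 (-0.30 to -0.05) and Cacna2d4 at -0.22 (-0.43 to -0.01) in cones. In bipolar cells Unc13b had 490 and 492 UMIs, a ratio of 0.38 (0.20 to 0.56), and in rod bipolar cells 178 and 168 UMIs, a ratio of 0.48 (0.16 to 0.79). With clusters the ratio of Unc13b in rod bipolar cells was 0.66, past 1.5-fold. Nsf was at -0.19 (-0.33 to -0.06) and Vamp2 at -0.20 (-0.38 to -0.03) in bipolar cells. None of these has a replicate check, since the spread between mice is unknown.

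More rods of the db/db library had a low mitochondrial share of UMIs, and some members differed with that share. Rods with under 2% mitochondrial UMIs were 34.5% of wild-type and 42.9% of db/db rods. Their median depth was 1640 and 1652 UMIs, against 2461 and 2180 in rods with 5 to 20%, and the part of depth in what follows was not tested. Against rods with 5 to 20%, 7 of 34 measured members were at least 1.5-fold higher in rods under 2% in both libraries (Bsn, Pclo, Rims2, Erc2, Unc13b, Cacnb2 and Dmd), against a background of 29.0% of all measured genes, and 1 was lower (Cplx2; background 4.27%). The median log2 ratio was 0.22 and 0.24 over the members and 0.44 and 0.48 over all measured genes, on a scale where a higher mitochondrial share lowers the CPM of every other gene. Cacnb2 was at 0.81 (0.70 to 0.91) and 1.06 (0.96 to 1.16), and Dmd at 0.80 (0.75 to 0.85) and 0.76 (0.72 to 0.81). At the other end Egflam was at -0.53 (-0.67 to -0.40) and -0.74 (-0.86 to -0.61), Slc17a7 at -0.40 and -0.60, Syp at -0.37 and -0.45, and Snap25 at -0.29 and -0.33. Members that span more of the genome were on the whole higher in rods of low mitochondrial share, with a Spearman correlation of 0.53 (wild type) and 0.52 (db/db) across 34 members, a description of genes that share the same cells. Cacnb2 spans 385 kb, Dmd 2257 kb and Slc17a7 12.2 kb. Syt1, at 513 kb, departs from this order with -0.08 in each library, as does Egflam, at 192 kb. Sv2b, at 194 kb, was also low for its span, at -0.05 and 0.09. The same correlation over all measured genes was not computed.

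**Figure D4:**
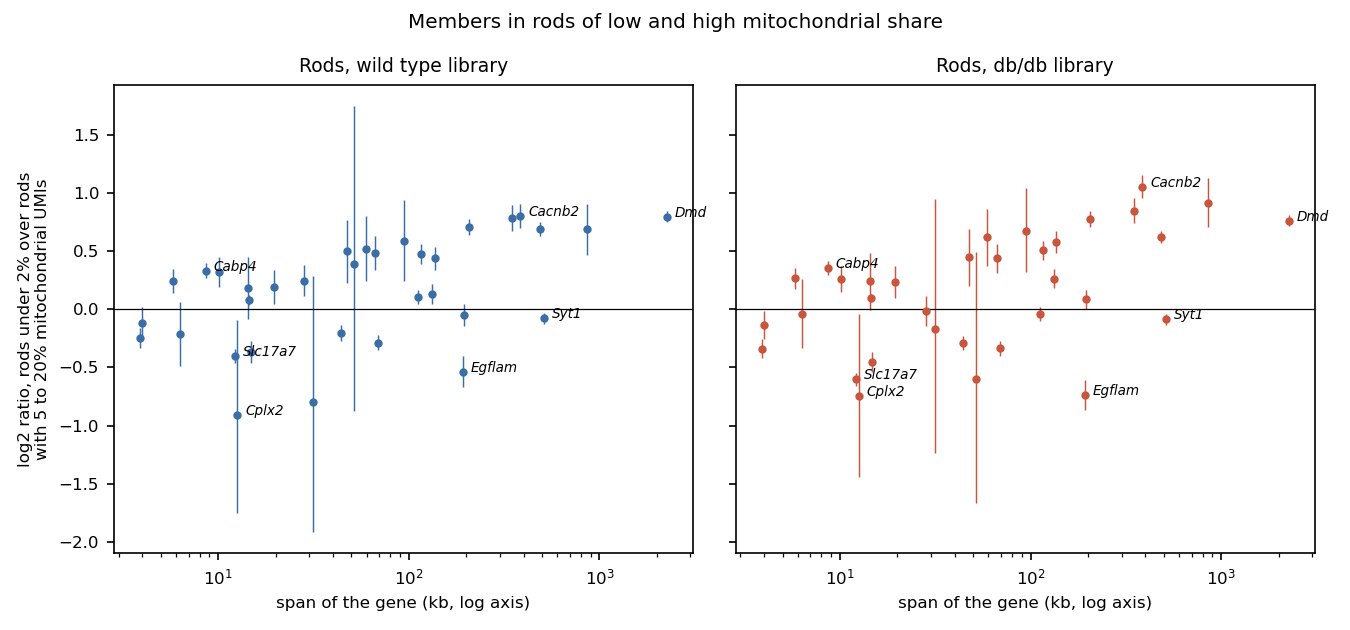
Log2 ratio of each measured member between rods with under 2% and rods with 5 to 20% mitochondrial UMIs (vertical axis, with 95% counting intervals) against the genomic span of the gene (kb, log axis), in the wild-type (left) and db/db (right) library. Points of long genes lie mostly above those of short genes, with Egflam and Syt1 below the other long genes.

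Within ranges of mitochondrial share the members' median ratio of db/db over wild type was 0.01 under 2%, -0.00 at 2 to 5% and -0.01 at 5 to 20%. Over all measured genes the median was 0.02, 0.02 and -0.01 in these ranges. Elfn1 was at 0.19, 0.13 and 0.23 in these ranges, Lrit2 at 0.13, 0.14 and 0.11, Snap25 at -0.15, -0.17 and -0.10, and Cplx3 at -0.32, -0.38 and -0.50, each with the direction it had over all rods. Cacnb2 was at 0.21 (0.14 to 0.28) and 0.19 (0.11 to 0.27) in the lower ranges and at -0.05 (-0.17 to 0.08) in rods with 5 to 20%. Cacna1f was at -0.26 (-0.38 to -0.15), -0.18 (-0.30 to -0.05) and -0.00 (-0.15 to 0.14).

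**Figure D5:**
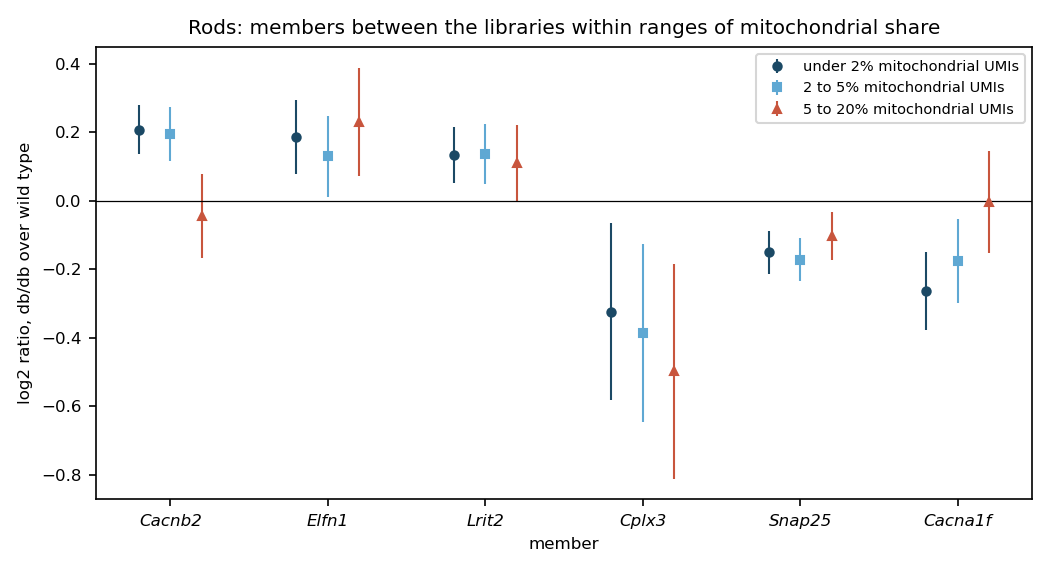
Log2 ratio of db/db over wild type in rods for the 6 members named in that class, within 3 ranges of mitochondrial share, with 95% counting intervals. Elfn1, Lrit2, Cplx3 and Snap25 keep their direction in the 3 ranges, while Cacnb2 and Cacna1f lie near 0 in rods with 5 to 20% mitochondrial UMIs.

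Other genes of the release pathway were taken from 4 lists, whose counts past 1.5-fold stand against 2.15% of all measured genes higher and 2.09% lower in rods, 2.51% and 2.49% in cones, and 3.76% and 4.11% in bipolar cells. Other release machinery genes had 0 of 28 measured members past 1.5-fold higher and 2 lower in rods, 0 and 0 of 13 in cones, and 0 and 2 of 20 in bipolar cells, with medians of 0.05, -0.03 and -0.01 against 0.03, 0.00 and -0.01 over all measured genes. The lower ones named in rods were low counts, Sv2c with 67 and 30 UMIs (-1.22, from -1.89 to -0.58) and the synaptotagmin gene Syt4 with 114 and 78 (-0.61, from -1.04 to -0.18). In bipolar cells Syt2, another synaptotagmin gene, had 47 and 12 UMIs (-1.60, from -2.65 to -0.66) and Rph3a, a Rab3 effector gene, 64 and 27 (-0.87, from -1.58 to -0.20), of which 61 and 23 were in rod bipolar cells (-0.85). Unc13c, a further priming factor gene, had 112 and 43 UMIs in rod bipolar cells (-0.82, from -1.36 to -0.30) and 147 and 72 in ON cone bipolar cells (-0.88, from -1.31 to -0.46). Also in ON cone bipolar cells, Napb had 150 and 83 UMIs (-0.70, from -1.11 to -0.31) and Rab3c 67 and 103 (0.77, from 0.31 to 1.24). Rims3 and Syngr1 in rods were at 0.29 and 0.17, and Tulp1 and Napb in cones at 0.11 and 0.26.

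Vesicle endocytosis and acidification genes, which recover membrane and fill vesicles, had 0 of 33 members past 1.5-fold in rods, with 8 of 33 ratios above 0, against 56.6% of all measured genes, and a median of -0.08, against 0.03. The proton pump genes Atp6v0c, with 11829 and 10708 UMIs, and Atp6v1f were at -0.21 and -0.22, and the endocytosis genes Dnm3 and Synj1 at 0.06 and 0.09. In cones and bipolar cells 0 of 32 and 0 of 33 were past 1.5-fold. In ON cone bipolar cells Ap2b1, an adaptor subunit gene, had 39 and 18 UMIs (-0.96, from -1.86 to -0.12).

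The list of other calcium channel subunits and calcium pumps had 4 of 17 measured members higher and 0 lower in bipolar cells, against the 3.76% background, with a median of 0.16 against -0.01. Cacna2d2, an auxiliary subunit gene, had 85 and 195 UMIs (1.57, from 1.20 to 1.96), and Cacna1a, the P/Q-type channel gene, 17 and 36 UMIs (1.46, from 0.59 to 2.38). In rod bipolar cells 0 of 8 were past 1.5-fold (background 3.20% higher and 7.50% lower), with a median of 0.03. In ON cone bipolar cells 1 of 11 was higher and 2 were lower (background 5.36% and 5.31%), with a median of -0.13. The higher one was Cacna2d2, with 20 and 44 UMIs (1.29, from 0.50 to 2.13). The part of the make-up of bipolar cells in the counts over all of them was not tested. In rods 0 of 14 were higher and 3 lower (background 2.15% and 2.09%), among them Cabp1, with 65 and 32 UMIs (-1.08, from -1.74 to -0.45), and Slc8a1, a sodium-calcium exchanger gene, with 89 and 55 (-0.76, from -1.27 to -0.26). In cones 1 of 7 was lower, Cacna1h, with 58 and 36 UMIs (-0.63, from -1.27 to -0.01).

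Dystroglycan complex and postsynaptic genes had 0 of 24 higher and 5 lower in rods (background 2.15% and 2.09%), and 0 of 21 past 1.5-fold in bipolar cells (background 3.76% and 4.11%). The lower ones named in rods were Trpm1 and Gpr179, whose home is the ON bipolar dendrite. In rods Gnb5 and Sntb2, a syntrophin gene, were at 0.10 and 0.13. In bipolar cells Trpm1, the ON bipolar cation channel gene, is among the markers that classed these cells and had 2856 and 1771 UMIs (-0.31, from -0.40 to -0.23), with -0.35 (-0.46 to -0.24) in rod bipolar and -0.31 (-0.53 to -0.09) in ON cone bipolar cells. Nyx, encoding nyctalopin, which holds that channel in place and was a marker of the class too, had 26 and 41 UMIs in ON cone bipolar cells (0.81, from 0.06 to 1.58).

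Some counts may hold reads of neighbours. Ctbp2 shares exon sequence with Fgfr2 on the same strand in the annotation, and 10 members overlap an exon on the other strand, among them Cabp4, Cacnb2, Elfn2 and Rab3a.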

How the data were processed

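The authors deposited raw counts of unique molecular identifiers (UMIs) for each gene in each barcode, made with Cell Ranger 6.0.1 per the file headers with mm10 as the genome per the submitters' processing notes. For the annotation release, the calling of cells and the use of strand, nothing is given in the sources used here. Barcodes with at least 200 genes and at most 20% mitochondrial UMIs were kept, which removed 1 and 7 barcodes by genes and 77 and 113 by mitochondrial share (wild type, db/db). Scrublet (scanpy 1.11.5) marked 0 and 2 cells, too few for a caller that worked, so doublets stayed in, and an alternative removed the 8% of highest score.

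Classes were gated on marker genes: at least 4 detected markers (3 for erythroid cells, 5 for rods) above a minimum share of UMIs, with rod markers under 150 UMIs per 10000 (250 for cones). Of cells within 25% of the cut, 17 of 120 and 10 of 98 were classed as cones, 17 of 97 and 20 of 73 as bipolar cells. Clusters that did not use the members gave the same name to 401 and 373 of the cones, 361 and 297 of the bipolar cells, 7491 and 8970 of the rods and 121 and 66 of the Muller glia. The clusters were named by the same markers, so this match was largely fixed in advance. The match was much lower the other way. The cone cluster held 763 and 640 cells, against 403 and 374 cones by the marker rule, and the bipolar clusters also held more cells than the rule.

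UMIs were summed per class and library and scaled to 1000000 (CPM), with exact Poisson intervals. Ratios have exact conditional binomial intervals, and a count of 0 was set to 3 UMIs. No p was computed, because there is 1 library per genotype. The libraries were compared in classes that had 50 cells or more in both, and comparisons between classes also took in amacrine cells, of which the db/db library had 10. Threshold calls were tried on simulated counts, drawn for both libraries from their pooled mean with counting error only. There 98.5% of genes changed 2-fold in rods and 91.9% in bipolar cells were past 1.5-fold, as were 0.877% and 3.96% of unchanged genes. No spread between mice, libraries or cells was put in, so these shares do not give the error of calls in the real data. Free rod RNA was estimated as the summed level of Gnat1, Pde6a, Pde6b, Cnga1 and Gngt1 in a class over that in rods, times the rod level of a gene, and in rods from erythroid cells; these genes were chosen after seeing the data. Named between the libraries were members past 1.5-fold and, per class, up to 3 highest and 3 lowest by the interval bound nearest 0 whose interval excludes 0; of the other lists, up to 2 and 2 per class, of which those in Muller glia and some small differences are left out, and 1 gene is not reported here. Values across classes are given for all members. The members and lists were chosen with earlier results of these data known. Positions are from GENCODE M21, which held 32235 of the 32285 genes, and promoters from RefSeq on GRCm38.p6.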

Additional observations from a re-analysis of the deposited data

How the results depend on the processing

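No paired analysis was possible because each genotype has 1 library and the labels carry no replicate numbers, and no library could be left out. No member ratio past its threshold changed sign under any alternative, while Cplx3 in cones, within 1.5-fold, was at 0.05 with clusters, and 219 of 256 main values and 240 of 248 values of named members stayed within the limits set for them. The number of members past 1.5-fold stayed between 0 and 1 in rods, in cones and in bipolar cells, 0 and 4 in rod bipolar cells, 0 and 3 in ON cone bipolar cells and 0 and 6 in Muller glia. With a stricter gate the number was 0 in bipolar, 0 in ON cone bipolar and 2 in Muller cells. With clusters it was 0 in bipolar, 3 in rod bipolar and 1 in ON cone bipolar cells, and 2 members were higher in ON cone than in rod bipolar cells. A mitochondrial limit of 10% gave 0 in bipolar and 1 in ON cone bipolar cells. Without the highest doublet scores it was 1 in ON cone bipolar cells, and the Muller median was 0.23. Scaling without mitochondrial and rod marker genes gave 0 in rod bipolar cells. Equal weight per cell gave 1 in rods (Cplx3, at -0.65), 1 in ON cone bipolar cells and 2 in Muller glia, with 2 members higher in ON cone than in rod bipolar cells and 1 in amacrine than in bipolar cells. Thinning gave 1 in cones, 0 in bipolar and 3 in rod bipolar cells, medians of 0.13 in rod bipolar and -0.11 in ON cone bipolar cells, and 1 member lower in ON cone than in rod bipolar cells. Subtracting free RNA gave 2 in Muller cells, with 2 members lower in cones than in rods and 2 higher in ON cone than in rod bipolar cells. At 200 UMIs the number was 0 in bipolar, 0 in rod bipolar, 1 in ON cone bipolar and 0 in Muller cells, with 1 member higher in bipolar cells than in cones and 1 in amacrine than in bipolar cells, fewer genes being tested. At 10 UMIs it was 1 in cones, 4 in rod bipolar cells and 6 in Muller glia, with 2 higher in ON cone than in rod bipolar cells. Median-of-ratios scaling, chosen after seeing the data, gave 2 in Muller glia. Apart from the UMI limits the cause was not tested. Among named members, thinning gave -1.56 for Erc2 in bipolar cells, 0.95 for Cplx4 in ON cone bipolar cells, 0.34 for Elfn1 and -0.12 for Snap25 in rods, and equal weight 0.14 for Cacnb2 in rods.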
